A study of Mus musculus with 4 samples.

Results

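Tuft cells of the small intestinal epithelium are described here from single-cell RNA counts. They were the barcodes that the authors placed in the class Tuft and passed in quality control in the library of dissociated single cells (singlets). This gave 112 of 5279 passing singlets, or 2.12% (exact Clopper-Pearson 95% interval 1.75% to 2.55%), and 19763 barcodes were measured in the whole series. The study profiled single cells and multiplets, which are clusters of cells still attached to each other, from the small intestinal epithelium and the whole lung of C57BL/6J mice, an inbred laboratory strain. No treatment or genetic change was applied in any group, and age, sex and number of animals were not given in the sources used here. Each group was 1 library, so replicate error is unknown and no test was run. All intervals are at 95% and cover counting error only. The classes were made by the authors, in a way not given in the sources used here, so gene differences between classes describe the tuft class and are not tests of it.

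Tuft cells are rare chemosensory cells of the gut lining. They carry a tuft of long microvilli into the lumen, use a signalling chain also found in taste cells, and depend on the transcription factor Pou2f3. In the intestine they are known as a source of interleukin 25, leukotrienes, prostaglandins and acetylcholine, and they take part in type 2 immune responses to worms and protists.

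Tuft singlets held a median of 6107 unique molecular identifiers (UMIs, each standing for 1 captured RNA molecule) and 2514 genes per cell, against 8759 UMIs and 2725 genes over all singlets. Their UMI totals ran from 1972 to 17237, and together they held 705981 UMIs, or 1.48% of the library. The median share of mitochondrial UMIs was 3.43%, and 12.1% of UMIs came from ribosomal protein genes against 17.9% over all singlets. No tuft barcode was also present in another library, whereas 4, 15 and 5 singlet barcodes of any class were shared with the intestinal multiplets, the lung singlets and the lung multiplets. Levels below are UMIs summed over the cells of a class and scaled to 1000000 UMIs per class (CPM). Because 3′-end UMIs count each molecule once, no scaling by gene length was made, and levels are compared between classes, not between genes.

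The class label was set beside 4 markers. Rgs13, a regulator of G-protein signalling (chr1:144138654-144177372, minus strand), was at 4068 CPM in tuft cells (exact Poisson interval 3921 to 4220) and at most 5.20 CPM in any of the other 9 classes. Dclk1, a kinase that binds microtubules (chr3:55242364-55539068, plus strand), was at 1377 CPM against at most 3.03 CPM. Avil, the actin-binding protein advillin (chr10:127000709-127020994, plus strand), was at 1207 CPM against at most 3.59 CPM. Trpm5, the cation channel that ends the taste signalling chain (chr7:143069153-143094642, minus strand), was at 463 CPM against at most 1.73 CPM. Tuft cells held 98.4% of all Rgs13 UMIs of the library, 97.6% of Dclk1, 92.8% of Avil and 95.3% of Trpm5. Each of the 4 genes was thus highest in the tuft class. Whether the authors used these genes to make the class is not known, so this describes the class and does not test its label.

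Cell by cell, the markers were compared after each cell had been thinned at random to 1500 UMIs, so that depth was equal. Rgs13 was then seen in 93.8% of tuft cells (105 of 112, interval 87.6% to 97.5%), Dclk1 in 79.5%, Avil in 75.0% and Trpm5 in 53.6%. In the other classes the highest such share of any of the 4 was 1.14%, for Dclk1 in Paneth cells, where it came from 1 of 88 cells. At least 3 of the 4 markers were seen in 85 tuft cells (75.9%) and in 0 of 5167 other singlets. Read at a floor of 3 counts, that 0 stands for 0.0581%. Without thinning, 107 tuft cells and 7 other singlets had at least 3 markers. These 7 were 3 early progenitors, 2 goblet cells, 1 Paneth cell and 1 transit amplifying cell, and Scrublet, a doublet caller, marked 0 of them. They held a median of 13.5 UMIs per 10000 from 26 further tuft genes (the named genes described next, without the markers), against 146 in tuft cells and 0 in the other singlets.

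Against the unweighted mean of the other 9 classes, 1227 of 6687 genes with at least 20 CPM (18.3%) were more than 2-fold higher in tuft cells and 751 (11.2%) more than 2-fold lower. Higher genes made up 62.0% of these calls. With TMM scaling, which equalizes the bulk of genes between classes, 549 were higher and 1210 lower, and higher genes made up 31.2%. TMM moved the median log2 ratio of all counted genes from 0.31 to -0.16. Against the median of the other classes higher genes made up 79.1%. A stricter comparison with the highest other class needed no such mean: 392 of 8380 genes (4.68%) were more than 2-fold above every other class in tuft cells. The same count was 392 in enteroendocrine cells, 302 in enterocytes, 168 in transit amplifying cells, 148 in goblet cells and 43 in Paneth cells.

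**Figure D1:**
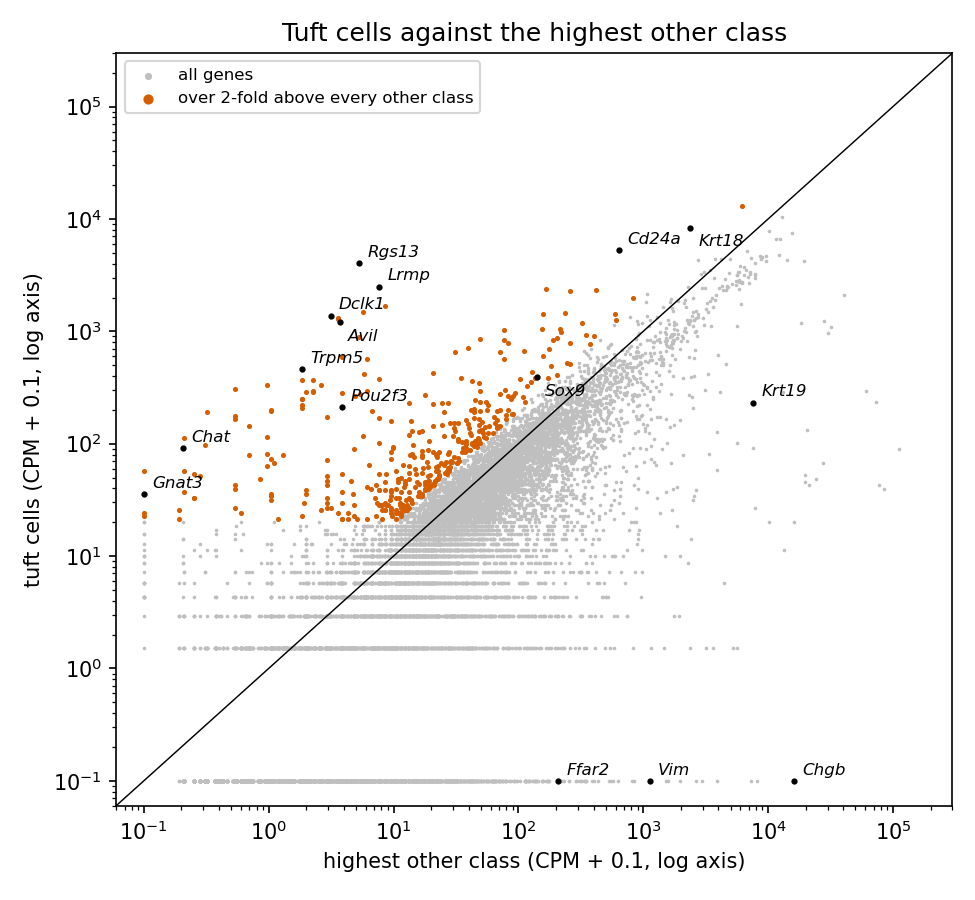
Each point is a gene, with its level in tuft cells on the vertical axis and in the highest other class on the horizontal axis, both as CPM plus 0.1 on log axes. The 392 orange genes lie more than 2-fold above every other class; Rgs13, at 4068 CPM in tuft cells, stands far above the diagonal, while Ffar2, Chgb and Vim lie at 0 in tuft cells.

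The 30 genes that stood furthest above their next highest class, among those with at least 50 CPM in tuft cells, were nearly private to these cells. Pate4, which encodes a small secreted protein, had 80 UMIs in tuft cells and 1 UMI in all other singlets. Plcb2 had 136 UMIs against 3, and Chat, the enzyme that makes acetylcholine, had 64 against 2. Spib, an ETS-family transcription factor, had 218 UMIs against 8, and Ackr4, a decoy receptor for chemokines, had 38 against 1. The ratio of Spib to the next highest class was 710, with a counting interval of 273 to 2628, since the goblet cells that came next held 4 UMIs. The others in this set included the adenylyl cyclase Adcy5 (36 UMIs against 2), the diacylglycerol kinase Dgki (68 against 3), the calcium uniporter subunit Mcub (258 against 21), the glycogen phosphorylase Pygl (415 against 15) and the tetraspanin Tspan6 (629 against 140). Tuft cells held between 81.8% (Tspan6) and 98.8% (Pate4) of the library's UMIs of each of the 30.

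**Figure D2:**
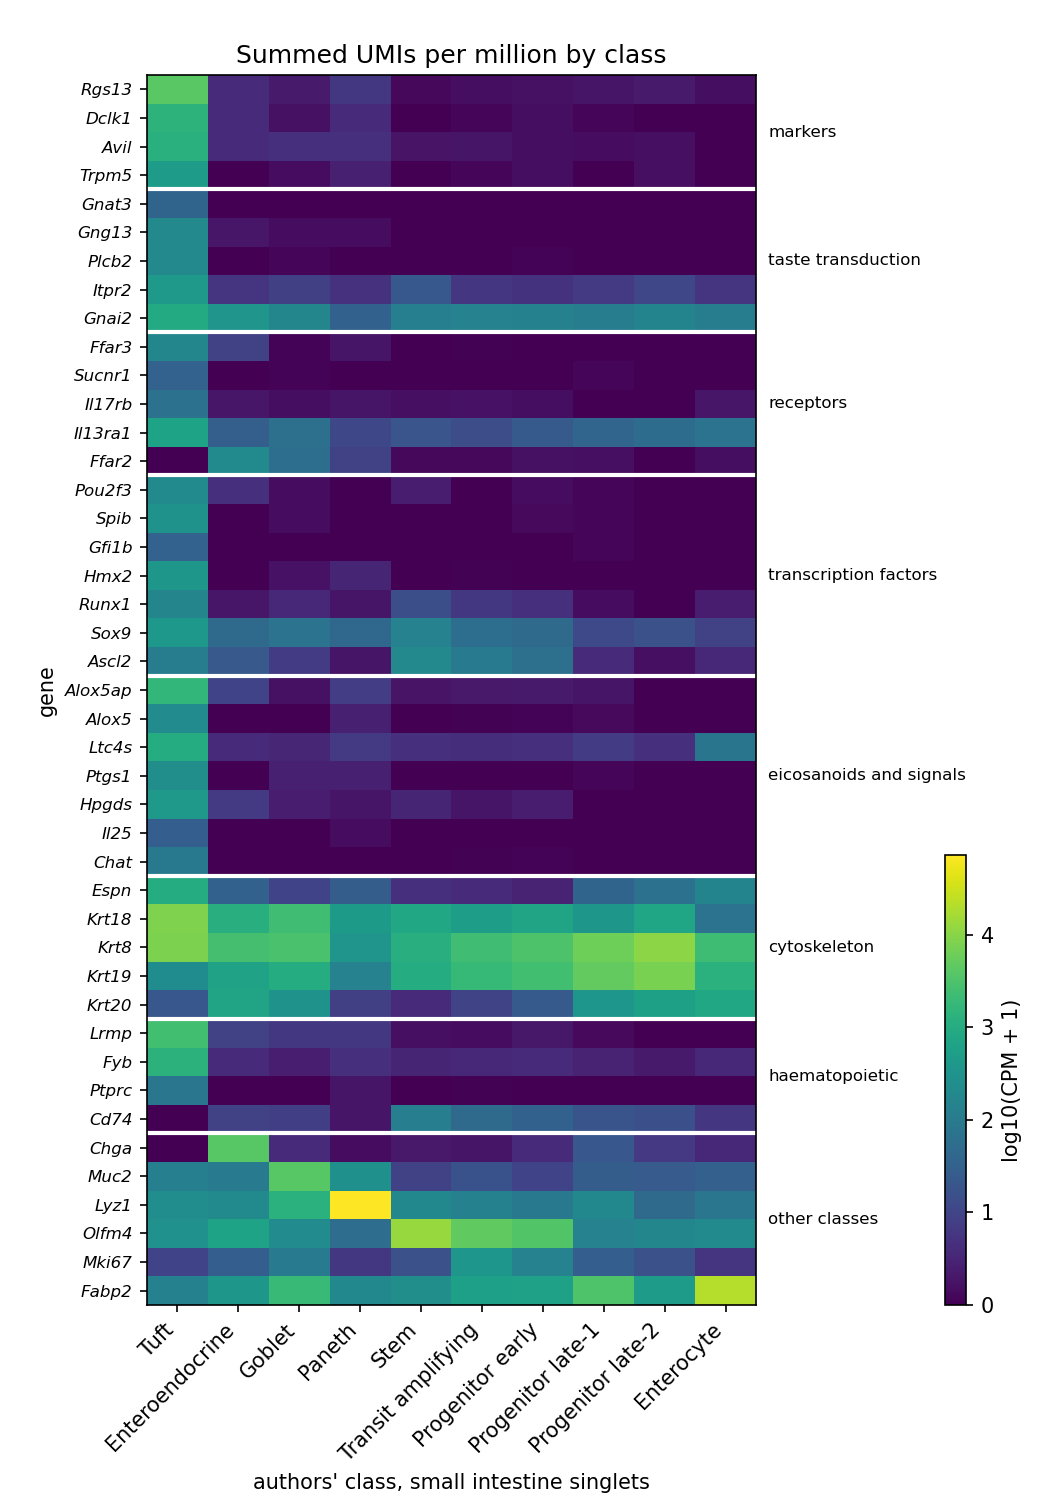
Levels of genes chosen from the lists, grouped by role, in the 10 classes of intestinal singlets, coloured by log10 of CPM plus 1. Most genes of the marker, taste, eicosanoid and haematopoietic blocks are brightest in the tuft column, whereas Krt8, Sox9, Ascl2 and Il13ra1 also have signal in other columns.

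Of 9 counted genes of the taste signalling chain, 7 were more than 2-fold higher than the mean of the other classes and more than 2-fold above every other class, and 0 were lower. Over all counted genes, 18.3% were higher than the mean, 11.2% were lower and 4.68% were above every other class. These shares are the comparison for the list counts below as well. The 7 include the markers Rgs13 and Trpm5, and also Plcb2 and Gng13. All 4 were among the genes picked above for standing furthest above their next class, so the count is a description only. Gnat3, the G-protein alpha subunit gustducin, had 25 UMIs in tuft cells and 0 in all other singlets, so it was at least 555-fold higher against a floor of 3 counts in the other singlets pooled. Gng13, the gamma subunit, was at 194 CPM against 0.941 CPM in enteroendocrine cells, the next class. Plcb2, the phospholipase that the G protein activates, was at 193 CPM against 0.218 CPM. Of the receptors that release calcium after it, Itpr2 was at 429 CPM against 20.6 CPM in stem cells. Itpr3, the receptor of taste bud cells, was at 17.0 CPM against a mean of 28.0 CPM and 49.9 CPM in enteroendocrine cells. Gnai2, a broadly used alpha subunit, was at 918 CPM against 346 CPM, and Gnb1, a beta subunit, was at 249 CPM against a mean of 192 CPM. The ratio of Itpr3 to enteroendocrine cells was 0.341 (0.166 to 0.646), and it was within 2-fold of the mean of the classes.

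Among receptors, 6 of 7 counted genes were higher than the mean of the other classes, 5 of them above every class, and 1 was lower. Over all counted genes, 18.3% were higher, 4.68% above every class and 11.2% lower. Ffar3, a receptor for short-chain fatty acids, was at 170 CPM in tuft cells, and 7.53 CPM in enteroendocrine cells was the next level. Ffar2, its close relative, had 0 UMIs in tuft cells and was at 207 CPM in enteroendocrine cells, so tuft cells were at least 48.7-fold lower at a floor of 3 counts. The pair of fatty acid receptors was therefore split between these classes. Sucnr1, the succinate receptor, had 23 UMIs (32.6 CPM) and at most 0.151 CPM elsewhere. Il17rb, a subunit of the receptor for interleukin 25, was at 66.6 CPM against 0.998 CPM in enterocytes. Il13ra1, a subunit of the receptor for interleukins 4 and 13, was at 656 CPM against 71.4 CPM, and Il4ra, its partner, was at 34.0 CPM against 20.7 CPM. Gprc5c, an orphan receptor, was at 89.2 CPM against 4.71 CPM. Taste and pheromone receptors were at the limit of detection, with 4 UMIs of Tas1r3 and 4 UMIs of Vmn2r26 in tuft cells, and 0 UMIs of Vmn2r26 in all other singlets.

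Of 14 counted transcription factors on a tuft list, 12 were higher than the mean and 10 were above every other class, with 0 lower. The shares over all counted genes were 18.3% higher, 4.68% above every class and 11.2% lower. Spib, Hmx2 and Hmx3 were among the 30 genes picked above, so the count is a description only. Pou2f3, on which the lineage depends, was at 211 CPM in tuft cells and at most 3.76 CPM elsewhere. Gfi1b, a repressor known from red cells and platelets, was at 32.6 CPM (23 UMIs) against 0.151 CPM. The homeobox genes Hmx2 and Hmx3 were at 365 and 201 CPM against 2.17 and 0.941 CPM. Runx1, a regulator of blood cell formation, was at 159 CPM against 13.7 CPM in stem cells. Nfatc1, a factor activated by calcium signals, was at 41.1 CPM against 5.98 CPM. Sox9, a factor of crypt base cells, was at 392 CPM against 141 CPM in stem cells. Sox4 and Ascl2 were higher than the mean but below another class: Sox4 was at 453 CPM in tuft and 688 CPM in enteroendocrine cells, and Ascl2 was at 110.5 CPM in tuft and 190 CPM in stem cells. Etv1 had 0 UMIs in tuft cells and was at 94.1 CPM in enteroendocrine cells.

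1810046K07Rik, which encodes a coactivator of Pou2f3, was at 227 CPM in tuft cells against 20.5 CPM in enterocytes. POU factors of this kind bind an octamer, so the letters ATGCAAAT were searched on both strands (read as ATTTGCAT on the other) in promoter windows from 250 bases before to 50 after each start in RefSeq, build GRCm38.p6. Of the 392 genes above every other class, 302 had a window by symbol and 12 of these (3.97%) held the octamer. The share was 1.68% of 6654 matched counted genes, 1.97% of 27025 gene symbols and 1.74% of 32851 windows. Of the 30 named genes, 25 had a window and 0 held it. A match describes letters in a window and is not a binding site. Among the 12 were the promoters of the coactivator itself, of the succinate receptor Sucnr1, of the prostaglandin D synthase Hpgds and of the surface protein gene Ly6g6d. They are printed from 5′ to 3′ on the gene's strand because they belong to genes described here, with the octamer in capitals.
1810046K07Rik: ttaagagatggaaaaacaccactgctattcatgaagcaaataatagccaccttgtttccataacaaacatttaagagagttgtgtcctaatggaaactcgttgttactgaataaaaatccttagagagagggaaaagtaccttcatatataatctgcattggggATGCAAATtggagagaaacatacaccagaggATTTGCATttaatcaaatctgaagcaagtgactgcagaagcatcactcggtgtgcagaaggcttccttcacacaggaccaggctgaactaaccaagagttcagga
Sucnr1: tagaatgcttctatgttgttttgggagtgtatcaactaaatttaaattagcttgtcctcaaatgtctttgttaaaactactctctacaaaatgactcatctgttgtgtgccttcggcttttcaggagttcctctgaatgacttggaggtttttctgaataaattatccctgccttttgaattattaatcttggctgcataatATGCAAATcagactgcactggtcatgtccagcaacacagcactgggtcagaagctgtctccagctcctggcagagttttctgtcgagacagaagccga
Hpgds: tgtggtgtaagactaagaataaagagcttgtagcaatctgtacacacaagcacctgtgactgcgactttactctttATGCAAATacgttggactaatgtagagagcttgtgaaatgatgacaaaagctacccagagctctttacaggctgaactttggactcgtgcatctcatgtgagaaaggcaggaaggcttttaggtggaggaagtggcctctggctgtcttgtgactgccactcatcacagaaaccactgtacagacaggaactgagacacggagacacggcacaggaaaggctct
Ly6g6d: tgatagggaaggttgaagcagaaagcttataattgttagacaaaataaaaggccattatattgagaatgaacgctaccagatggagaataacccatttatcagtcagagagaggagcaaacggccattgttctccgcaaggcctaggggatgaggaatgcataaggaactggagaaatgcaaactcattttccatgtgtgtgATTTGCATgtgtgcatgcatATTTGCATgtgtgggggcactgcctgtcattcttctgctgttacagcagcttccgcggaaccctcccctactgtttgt
The windows are chr9:51328869-51329168, minus strand, for 1810046K07Rik; chr3:60081619-60081918, plus strand, for Sucnr1; chr6:65144681-65144980, minus strand, for Hpgds; and chr17:35081190-35081489, minus strand, for Ly6g6d. The first octamer began at position -86 from the start in 1810046K07Rik, -48 in Sucnr1, -174 in Hpgds and -48 in Ly6g6d, and the windows of 1810046K07Rik and Ly6g6d held a second copy.

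Of 9 counted genes of eicosanoid synthesis, 6 were above every other class and 1 was lower than the mean. Over all counted genes, 4.68% were above every class and 11.2% were lower. The 6 include Alox5ap and Ptgs1, which were among the 30 genes picked above, so the count is a description only. Pla2g4a, the phospholipase that frees arachidonic acid, was at 303 CPM against 77.8 CPM in stem cells. The leukotriene branch was present up to leukotriene C4: Alox5 was at 222 CPM against 1.73 CPM, its activating protein Alox5ap at 1673 CPM against 8.47 CPM, and the synthase Ltc4s at 1024 CPM against 76.4 CPM in enterocytes. Lta4h, which makes leukotriene B4 instead, was at 55.2 CPM against a mean of 88.4 CPM. Ggt1, which converts leukotriene C4 to D4 outside the cell, had 1 UMI in tuft cells and was at 539 CPM in enterocytes. In the prostaglandin branch, Ptgs1 (the cyclooxygenase COX-1) was at 248 CPM against 1.73 CPM, and Hpgds at 414 CPM against 5.65 CPM. Ptges, Ptgds and Tbxas1, which make prostaglandin E2, prostaglandin D2 and thromboxane, had 0 UMIs in tuft cells, but none exceeded 0.903 CPM in any other class either, so the depth could not show a difference. Ptges2, a further prostaglandin E2 synthase gene on the list, was at 34.0 CPM in tuft cells.

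Genes for secreted signals were few. Il25 had 19 UMIs in tuft cells (26.9 CPM) and at most 0.433 CPM elsewhere. It was seen in 3.57% of tuft cells at 1500 UMIs. Tslp had 5 UMIs in tuft cells, and Il33, Ccl20 and Tnfsf15 had 0. Il18 (9.92 CPM against a mean of 109 CPM), Ccl9 (28.3 against 63.4 CPM) and Ccl6 (89.2 against 226 CPM) were lower than the mean, which made 1 higher and 3 lower of 4 counted. Against the median of the classes instead, 3 of 3 counted genes of this list were higher, and with TMM scaling 0 were higher and 3 lower of 3. Chat was at 90.7 CPM, and it overlaps Slc18a3, the vesicular acetylcholine transporter, on the same strand, which was not analysed in the singlets. Of the other counted genes of acetylcholine handling, Bche, a cholinesterase, had 2 UMIs in tuft cells against a mean of 58.0 CPM, whereas Acly (32.6 against 31.6 CPM), Slc44a1 (36.8 against 58.0 CPM) and Slc44a4 (39.7 against 42.2 CPM) were within 2-fold.

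Genes of microvilli and the cytoskeleton gave 15 of 26 counted genes higher than the mean, 9 above every class, and 4 lower. With TMM scaling 10 were higher and 4 lower. Over all counted genes the shares without TMM were 18.3% higher, 4.68% above every class and 11.2% lower. The list includes the marker Avil, which was also among the 30 genes picked above, so its count is a description only. Espn, which bundles actin in long microvilli, was at 1043 CPM against 153 CPM in enterocytes. The general villus genes Vil1 (457.5 CPM against a mean of 244 CPM) and Ezr (169 against 151 CPM) were within 2-fold, and Pls1 (62.3 against 150 CPM) and Eps8 (11.3 against 71.6 CPM) were lower. Krt18 was at 8367 CPM against 2386 CPM in goblet cells, and its partner keratin Krt8 at 7860 CPM against 10228 CPM in late-2 progenitors. Krt19 was at 232 CPM against a mean of 2317 CPM, and Krt20 at 19.8 CPM against 306 CPM. The 4 keratins thus went different ways, with Krt18 above every other class and Krt19 and Krt20 lower than the mean. Of the tubulins, Tuba1a (1055 CPM against 215 CPM in enteroendocrine cells) and Tubb4b (1965 CPM against 823 CPM in transit amplifying cells) were above every other class.

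Genes better known from blood cells formed the list with the most calls. Of 28 counted, 27 were higher than the mean and above every other class, and 0 were lower. The list was chosen with earlier results of these data known and shares members with the 30 genes above, so its count is a description only. Lrmp, a membrane protein of lymphocyte endoplasmic reticulum, was at 2499 CPM against 7.53 CPM. The SH2 adaptors Sh2d6 and Sh2d7 were at 1279 and 334 CPM against 3.47 and 0.866 CPM. Fyb, an adaptor of T cell signalling, was at 1322 CPM against 3.47 CPM. The phosphatases Ptpn6 and Inpp5d were at 659 and 144.5 CPM, Vav1 at 331.5 CPM, Plcg2 at 295 CPM, Rac2 at 289 CPM and the gamma phosphoinositide 3-kinase genes Pik3r5 and Pik3cg at 289 and 171 CPM. Ptprc, the pan-leukocyte surface phosphatase CD45, had 57 UMIs (80.7 CPM) and was at most 0.866 CPM elsewhere. Cd24a, a surface glycoprotein, was at 5281 CPM against 633 CPM, and Siglecf, a sialic acid receptor of eosinophils, was at 296 CPM against 2.17 CPM. Samhd1 was the exception, at 46.7 CPM against a mean of 35.6 CPM.

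Defining leukocyte genes did not accompany this list. Of 6 leukocyte markers analysed, Cd79a, Ms4a1, C1qa and Cd52 had 0 UMIs in tuft cells, Lyz2 had 1 and Cd79b had 6. Their summed level was 9.92 CPM in tuft cells and 0.499 to 25.99 CPM in the other classes, and no tuft cell had more than 1 thinned UMI of the list. The class II antigen presentation genes H2-Aa, H2-Eb1, Cd74 and Ciita had 0 UMIs in tuft cells, while Cd74 was at 119 CPM in stem cells. Vim, a mesenchymal and leukocyte filament, had 0 UMIs. Epcam, which marks epithelium, was at 3330 CPM in tuft cells against a mean of 3042 CPM, with a UMI in 96.4% of thinned tuft cells. Kit, the 1 gene of a mast cell list analysed here, was at 156 CPM in tuft cells and 80.6 CPM in goblet cells.

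**Figure D3:**
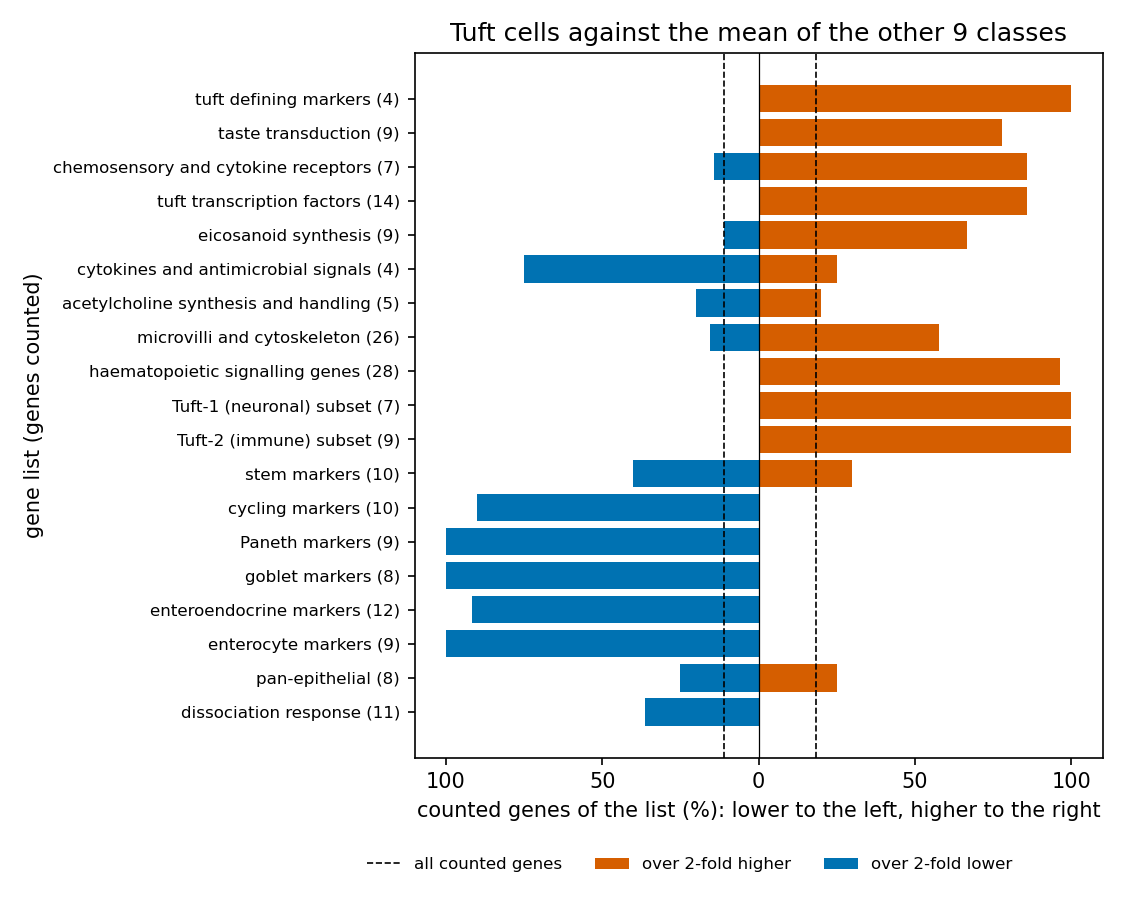
For each gene list, bars give the share of its counted genes more than 2-fold higher (right) or lower (left) in tuft cells than the mean of the other 9 classes, and dashed lines give the same over all counted genes, 18.3% and 11.2%. The haematopoietic list reaches 27 of 28 higher, and the goblet, Paneth and enterocyte lists lie wholly on the lower side, though 7 of 7 goblet genes were higher against the median of the classes.

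Stem cell genes were mixed, with 3 higher than the mean, 4 lower and 3 within 2-fold of 10. Lgr5 was at 65.2 CPM in tuft and 196 CPM in stem cells, against a mean of 30.4 CPM. Smoc2 was at 184 CPM in tuft and 401 CPM in stem cells. In contrast Olfm4 was at 290 CPM in tuft and 13113 CPM in stem cells, and Cdca7 at 17.0 and 324 CPM. With TMM scaling 2 were higher and 6 lower, and against the median of the classes 4 were higher and 0 lower of 8 counted. Cell cycle genes were lower than the mean in 9 of 10, and lower than the median of the classes in 2 of 5 counted. Mki67 had 6 UMIs (8.50 CPM against 350.0 CPM in transit amplifying cells). The stress genes induced by dissociation gave 0 higher and 4 lower of 11, among them Fos at 90.7 CPM against a mean of 304.5 CPM. This count depended on the setting, with 7 lower with TMM scaling, 6 without Scrublet doublets or without the goblet-rich cells described below, and 1 higher and 0 lower against the median of the classes.

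Marker genes of the other mature classes were lower than the mean of the classes in 9 of 9 Paneth, 8 of 8 goblet, 11 of 12 enteroendocrine and 9 of 9 counted enterocyte genes. That mean holds the class the markers belong to. Against the median of the other classes, which does not rest on 1 class, 7 of 7 goblet genes and 2 of 6 Paneth genes were higher in tuft cells, 1 of 1 enteroendocrine genes was higher, and 1 enterocyte gene was higher and 4 lower of 5. Most of the goblet genes rested on 4 tuft cells described below. By any margin, 0 of 8 goblet genes were under the median of the classes other than goblet with all tuft cells, and 6 of 8 without the 4. Tff3 (350 against 240 CPM) and Spdef (12.2 against 1.18 CPM) stayed above it. Of the enteroendocrine markers, 10 of 12 had 0 UMIs in tuft cells. Chgb was at least 3767-fold lower than in enteroendocrine cells at a floor of 3 counts, and Chga at least 918-fold. The exception was Sct, the hormone secretin, with 146 UMIs (207 CPM) in tuft cells and 2482 CPM in enteroendocrine cells.

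Some RNA was held in common with another class. Of 449 genes at least 5-fold over the median of the other classes in tuft cells, enteroendocrine cells were the next highest class for 179, goblet cells for 68, stem cells for 55 and enterocytes for 53. In 149 of the 449 the next class lay within 2-fold of tuft cells or above, and 62 of these were enteroendocrine, 32 goblet, 23 enterocyte and 17 stem. Tm4sf4, a tetraspanin-like membrane protein, was at 1819 CPM in tuft and 1052 CPM in enteroendocrine cells, over a median of 11.98 CPM. Hepacam2, an adhesion protein, was at 609 and 506 CPM over a median of 3.01 CPM. Selenom, a selenoprotein of the endoplasmic reticulum, was at 1615 CPM in tuft and 1708 CPM in goblet cells over a median of 18.04 CPM. With enterocytes, tuft cells shared the glutathione transferase Mgst3 (4326 and 2762 CPM) and the microvillus cadherin Cdhr5 (575 and 376 CPM). Agt, angiotensinogen, was at 212.5 CPM in tuft and 145 CPM in Paneth cells over a median of 0.452 CPM, and Cnn3, a calponin, at 150 CPM in both tuft and stem cells over 10.2 CPM. Without 4 tuft cells rich in goblet RNA, described below, 145 genes met the same limits and 132 were in both sets, with 26 in place of 32 for goblet cells.

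Genes low in tuft cells were ranked by the ratio to the lowest other class, and few reached below it. Fabp2, a fatty acid carrier of enterocytes, was at 133 CPM in tuft cells (interval 108 to 163) and 181 CPM in Paneth cells, the lowest other class. Cd63, a tetraspanin of late endosomes, was at 238 CPM (203 to 277) against 272 CPM in early progenitors. Krtcap2, a subunit of the enzyme that adds N-linked sugars, was at 170 CPM (141 to 203) against 192 CPM in stem cells. The other 9 of the 12 genes named by this rule were at or above the lowest class. They included the cargo receptor Tmed10 (293 against 281 CPM in Paneth cells), the fucose pathway enzyme Gmds (167 against 157 CPM) and the ribosome receptor Rrbp1 (157 against 145 CPM in stem cells). For these 3, goblet cells had the highest level, at 580 to 932 CPM. Among genes with at least 100 CPM in every other class, the lowest ratio to the lowest class was thus 0.737, that of Fabp2. Paneth cells were the lowest class for Fabp2, Tmed10 and Gmds. In Paneth cells the 9 Paneth markers summed to 586645 CPM, which leaves less of the CPM total for every other gene. The ranking is given for CPM only.

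Variation among the 112 cells was measured as the ratio of variance to mean of UMIs after thinning to 1500, which is near 1 for counting noise alone. The 4 most variable genes were the goblet products Zg16 (101), Spink4 (47.8), Agr2 (22.9) and Tff3 (12.97). Their UMIs lay in a few cells: 5 tuft cells held 95.7% of Zg16 and 93.5% of Spink4. Summed over 8 goblet markers, the thinned UMIs were 204, 110, 42 and 31 in 4 cells and at most 7 in the other 108, with a median of 1 and 47 cells at 0. These 4 cells still held 4 to 11 thinned UMIs of the tuft markers, and Scrublet marked 3 of them as doublets. It marked 8 of 112 tuft cells in all (7.14%) against 85 of 5279 singlets (1.61%). Without the 4 cells, Zg16 went from 2098 to 108 CPM, Muc2 from 126 to 12.2 CPM and Agr2 from 1089 to 102 CPM, each within the range of the classes other than goblet, and the variance ratio of Zg16 became 0.999. Mmp7, the Paneth protease, was a like case, since all of its 28 tuft UMIs lay in 5 cells.

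Beyond these, Fabp1 (9.73), Krt18 (7.92), Malat1 (7.18), Olfm4 (4.77), Defa24 (4.60) and Stmn1 (3.87) had the highest ratios. The cell with the most Stmn1, at 11 thinned UMIs, was marked by Scrublet and held 1 thinned UMI of the tuft markers. Krt18 was in 111 of 112 thinned cells, and per 10000 UMIs it ran from 4.20 to 309 with a median of 71.9. Among 19 genes compared in pairs after their values were seen, Tm4sf4 and Krt18 had a Spearman rho of 0.56, and Tuba1a and Krt18 0.53. Cd24a went with Alox5ap (0.53) and with Rgs13 (0.52). Stmn1, a tubulin-binding protein of immature and dividing cells, went against Krt18 (-0.48) and Tm4sf4 (-0.34), as Sox4 did against Krt18 (-0.40). These correlations are over 112 cells of 1 library, which share that library and the thinning, and cells are not replicates.

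**Figure D4:**
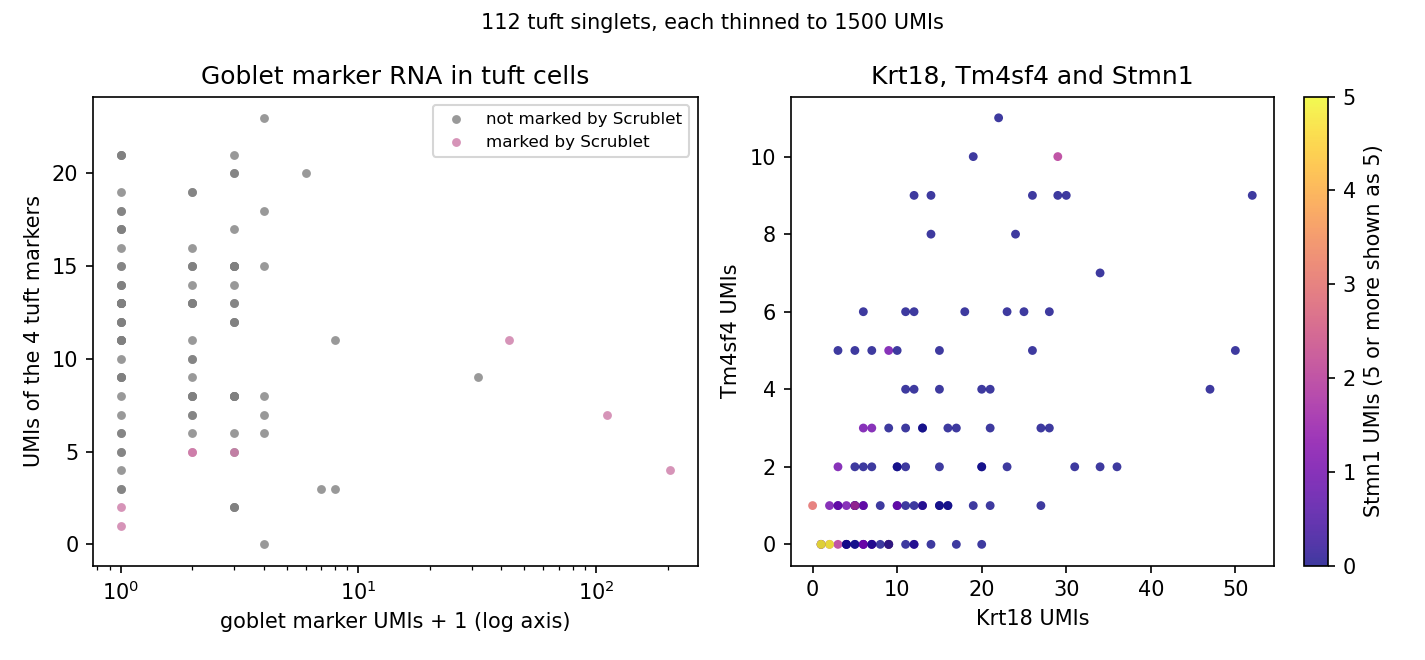
Each point is 1 of 112 tuft cells thinned to 1500 UMIs. On the left, UMIs of the 4 tuft markers are set against UMIs of 8 goblet markers plus 1 on a log axis, and 4 cells stand apart at 31 to 204 goblet UMIs; on the right, Tm4sf4 is set against Krt18 and coloured by Stmn1, whose UMIs lie mostly in cells low in both.

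A pair of tuft cell subsets known from the literature, a neuronal Tuft-1 and an immune Tuft-2, were read through short lists. All 7 genes of the Tuft-1 list and all 9 of the Tuft-2 list were higher in tuft cells than the mean of the classes. Of these, 5 and 9 were above every class. Over all counted genes, 18.3% were higher and 4.68% above every class. Gng13 of the Tuft-1 list and Ptgs1, Tspan6 and Spib of the Tuft-2 list were among the 30 genes picked above. The counts are therefore descriptions only. For the Tuft-1 list 6 of 7 were higher with TMM scaling, without Scrublet doublets or without the goblet-rich cells. Within the 112 cells, thinned UMIs of both lists were seen in 69, of the Tuft-1 list alone in 11, of the Tuft-2 list alone in 26 and of neither in 6. The summed UMIs of the lists had a Spearman rho of -0.11 over the cells. At a median of 1.5 and 3 thinned UMIs per cell, the depth was too low to place single cells in either subset.

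The multiplets of the small intestine gave a reading of the tuft genes in barcodes that the class rule had not used. At least 3 of the 4 markers were seen in 21 of 3671 thinned multiplets (0.572%, interval 0.354% to 0.873%), against 85 of 5279 singlets (1.61%, 1.29% to 1.99%). Without thinning the counts were 56 multiplets (1.53%) and 114 singlets (2.16%). The 21 tuft-marked multiplets had a median of 6509 UMIs and the other multiplets 12643. The 56 found without thinning had a median of 11292, so the lower depth of the 21 depended on the thinning. Thinning a barcode with RNA of several cells leaves fewer UMIs for each cell, so the thinned share also depends on how much of the barcode was tuft RNA.

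The 26 further tuft genes made up a median of 0.828% of UMIs in tuft-marked multiplets (0.156% to 3.24%), 0 in the other 3650 and 1.46% in tuft singlets. The ranges met, since 29 other multiplets were above the lowest tuft-marked one. Of the genes above every other class in singlets, 387 besides the markers were analysed in the multiplets, with no minimum level. Of these, 346 (89.4%) were more than 2-fold higher in tuft-marked than in other multiplets, 36 were within 2-fold and 5 were lower, all 5 with 0 UMIs in the 21 barcodes. Over all 15601 genes the share of higher genes was 15.5%. Lrmp was at 1172 CPM in the tuft-marked and 5.73 CPM in the other multiplets, Alox5ap at 963 against 4.66 CPM and Chat at 97.3 against 0.258 CPM. Gnat3 had 20 UMIs in 8 of the 21 barcodes and 3 UMIs in all other multiplets. Pooled over barcodes, the 26 genes were at 0.813% of UMIs in the 21 tuft-marked multiplets and at 0.458% in the 56 found without thinning, against 1.34% in tuft singlets.

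**Figure D5:**
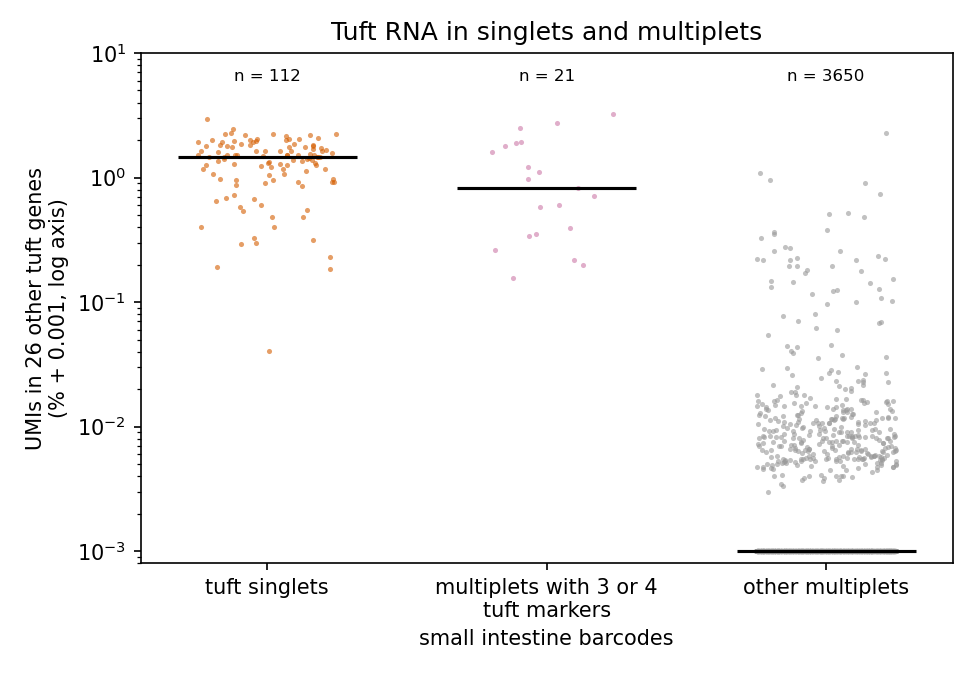
Percent of UMIs, plus 0.001 on a log axis, that fell on 26 tuft genes other than the 4 markers, for 112 tuft singlets, 21 multiplets with 3 or 4 markers and 3650 other multiplets; lines are medians. Tuft-marked multiplets have a median of 0.828%, below the 1.46% of tuft singlets, and most other multiplets lie at 0.

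RNA of other cell types in the tuft-marked multiplets was read from the marker lists. Enterocyte markers summed to 7384 CPM, against 1130 CPM in tuft singlets and 7237 CPM in the other multiplets, and cell cycle markers to 968 CPM, against 136 and 1219 CPM. At least 2 thinned UMIs of the enterocyte list were in 11 of the 21 (52.4%, interval 29.8% to 74.3%), in 24.1% of tuft singlets and in 55.3% of the other multiplets. Paneth markers summed to 837 CPM against 65475 CPM in the other multiplets, a ratio of 0.0128 (0.0109 to 0.0148). That ratio was 0.0119 among the 56 multiplets found without thinning. The goblet ratio depended on this choice, at 0.0100 with and 0.181 without thinning, as did the enteroendocrine ratio, at 0.126 and 0.796, and the cell cycle ratio, which turned from 0.794 to 1.19. The enterocyte sum was 7384 CPM with and 5379 CPM without thinning, with ratios of 1.02 and 0.741 to the other multiplets.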

How the data were processed

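The deposited tables hold raw UMI counts per gene and barcode, and the authors' annotation gives class and quality flag. Per the submitters' processing notes, Cell Ranger 4.0.0 and build mm10 were used; per the labels, libraries were made with the Chromium 3′ v3 kit after mechanical and enzymatic dissociation. Of 6710 listed intestinal singlet barcodes, 5279 passed and were used, and all were kept.

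UMIs were summed per class and scaled to CPM (numpy 2.4.6, scipy 1.17.1, pandas 2.3.3). Genes with at least 20 CPM on either side were counted (in multiplets genes at any level, a choice made after seeing the data), and calls were made by size, over 2-fold, since 1 library per group allowed no test. Sums carry exact Poisson, shares exact Clopper-Pearson and ratios conditional binomial intervals at 95%; a count of 0 was read at a floor of 3 counts. Cells were thinned once to 1500 UMIs with a fixed seed. Scrublet ran in scanpy 1.11.5, and marked barcodes were kept. TMM factors came from edgeR 4.0.16 (R 4.3.3). The size calls were tried on simulated Poisson counts in which all classes shared the same profile, apart from set changes in tuft cells. The real classes differ in composition, so this does not test how scaling affects the calls.

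Named genes are the 30 that stood furthest above their next highest class, by ratio, at 50 CPM or more, the 12 with the lowest ratio to the lowest class where that class has at least 100 CPM, the 10 most variable with a thinned mean of at least 0.3 UMI, the 4 highest per shared class, and members of the gene lists; Gm-numbered, Rik and mitochondrial genes were left out of the rankings. Members and lists were chosen with earlier results of these data known. The taste, transcription factor, eicosanoid, acetylcholine, cytoskeleton, haematopoietic, Tuft-1 and Tuft-2 lists share members with the 30 genes. Their counts are therefore descriptions only. Gene positions are from GENCODE vM21.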

Additional observations from a re-analysis of the deposited data

How the results depend on the processing

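With 1 library, no result could be set against a replicate, and rare genes rest on few UMIs. Counts of genes higher than the mean, lower than the mean and above every class were 549, 1210 and 252 with TMM scaling, 2774, 5169 and 879 with no minimum level, and 376, 230 and 173 at 100 CPM or more; 372 were lower than the median of the classes. At 3-fold over the median, 387 shared genes replaced 149. Without thinning, and at 3000 UMIs (100 tuft cells), the share of tuft cells with a UMI was 92.0% and 87.0% for Dclk1, 89.3% and 66.0% for Trpm5, and 98.2% and 89.0% for Avil. At 3000 UMIs the ratio of variance to mean was 210 for Zg16, 38.9 for Agr2, 27.1 for Tff3, 17.3 for Fabp1, 14.4 for Krt18, 10.8 for Olfm4 and 11.5 for Defa24. Without the goblet-rich cells, an alternative chosen after seeing the data, it was 0.999 for Zg16, 0.916 for Spink4, 1.21 for Agr2, 2.37 for Tff3 and 3.04 for Defa24. Multiplets with tuft markers numbered 40 at 2 markers, 6 at all 4 and 56 without thinning. For the 30 named genes, 180 alternative ratios to the next class gave 0 reversals and 15 values outside the counting interval, all of these 15 with TMM scaling, with log2 ratios from 4.68 to 10.43. No paired analysis was possible because each group was 1 library.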

Other observations

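The lung libraries held 1 barcode with all 4 tuft markers. It was 1 of 4729 lung multiplets (0.0211%, exact Clopper-Pearson 95% interval 0.000535% to 0.118%) and had 12315 UMIs over 4048 genes, with 43 UMIs of Rgs13, 32 of Avil, 12 of Trpm5 and 7 of Dclk1. All other lung multiplets together held 5 UMIs of Rgs13, 1 of Trpm5, 37 of Avil and 1298 of Dclk1, so Dclk1 was not rare in the lung. Of 22 further tuft genes analysed there, 21 had a UMI in this barcode, and they made up 1.69% of its UMIs, against at most 0.525% in any other lung multiplet. Some of the 22 were common in the other lung multiplets, such as Alox5ap (21979 UMIs) and Fyb (7467). Some were rare there, such as Sh2d6 and Ly6g6f (2 UMIs each). The barcode held 20 UMIs of Gng13, 5 of Gnat3, 3 of Pou2f3, 60 of Lrmp and 39 of Epcam. Scgb1a1 of club cells and Sftpc of alveolar type 2 cells, among the leading lung genes, had 7 and 5 UMIs in it. Its barcode was in neither small intestine library. In the lung singlets, 0 of 6084 had Rgs13, Dclk1 and Avil together (exact interval up to 0.0606%), and Trpm5 was not analysed there.

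One tuft-marked intestinal multiplet held nearly all leukocyte marker RNA of its group. The leukocyte list summed to 39 UMIs in the 21 barcodes (190 CPM against 10.5 CPM in the other multiplets, a ratio of 18.02, or 5.675 among the 56 found without thinning), and 37 of these were Lyz2, the lysozyme of macrophages and granulocytes, in a single barcode of 5194 UMIs. That barcode also had 18 UMIs of Rgs13, 14 of Dclk1, 81 of Krt18 and 9 of Epcam, and no UMI of any other gene of the leukocyte list. Whether its Lyz2 RNA came from a leukocyte was not tested.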
